A study of Mus musculus with 7 samples.

Results

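The genes described here are the insulin-like growth factor (IGF) axis of the Nkx3.1-/- mouse prostate: the ligands Igf1 and Igf2, the receptors Igf1r and Igf2r, and the binding proteins Igfbp2, Igfbp3, Igfbp4, Igfbp5, Igfbp6 and Igfbp7. They were chosen by name, and all 10 were measured, each by 1 probe set, among 18938 genes in all. IGFs are secreted peptides that activate the receptor tyrosine kinase encoded by Igf1r and, through insulin receptor substrates, PI3 kinase and AKT, promote growth and survival of cells. Binding proteins hold the ligands outside the cell and limit or prolong their access to the receptor, while the receptor encoded by Igf2r carries Igf2 to lysosomes and does not signal as a kinase. In the prostate, Igf1 is known mainly as a product of stromal cells that acts on the epithelium.

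RNA came from mice homozygous null for the homeobox gene Nkx3.1, of recombinant inbred B6/129 background and 16 weeks old. The NAC group (4 mice, replicates 1 to 4) drank water with 5 mM N-acetylcysteine (NAC), a thiol antioxidant from which cells can make glutathione, for 13 weeks from weaning on, and the vehicle group (3 mice, replicates 1, 2 and 4) plain water for the same time. Each mouse gave 1 Affymetrix Mouse Gene 1.0 ST array, on which probes along a transcript are combined into 1 log2 value. The paper took RNA from 4 mice of each group, and reports that 3 vehicle and 4 NAC arrays passed quality control. The mutation was carried by both groups and no wild-type array was analysed, so the comparison is one of NAC within mutant prostates. Littermates had been divided between NAC and vehicle cages, so that cage and NAC cannot be told apart. Litter was not part of the fits. The extraction protocol names the anterior prostate and the tissue label the whole prostate. The p-values measure the spread between these mice, whose number limits the precision of every value.

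The prostate was present on every array by its markers, with the secretory gene Pbsn from 12.63 to 12.95 and the luminal keratin Krt8 from 11.96 to 12.12. Array medians lay between 7.12 and 7.16. NAC replicate 3 stood apart: all 8 lung markers, all 8 skeletal muscle markers and all 7 adipocyte markers measured were highest on it, with the surfactant gene Sftpc at 10.51 there and at most 5.26 on any other array. Of all genes, 14.8% were highest on this array, so each member is given with and without it.

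Igf1 and Igfbp5 were the 2 members with the largest log2 differences between NAC and vehicle. The RefSeq sequences of the 250 bases before their start sites (GRCm38.p6) are shown to set the regulatory DNA of this pair side by side, 5′ to 3′ on the strand of the gene. Capitals mark matches on either strand to 5 motifs, which are the TATA box TATAAA and its variant TATTTAA, the CCAAT box, the GC box GGGCGG, and TGACNNNGC, which begins and ends like the antioxidant response element. The Igf1 sequence is chr10:87860861-87861110 on the + strand and the Igfbp5 sequence chr1:72874866-72875115 on the - strand. The Igf1 gene begins at 87858265 in the gene table, so its window lies inside the gene, before an internal start site. The Igfbp5 window adjoins the outermost start of its gene, at 72874865.
Igf1: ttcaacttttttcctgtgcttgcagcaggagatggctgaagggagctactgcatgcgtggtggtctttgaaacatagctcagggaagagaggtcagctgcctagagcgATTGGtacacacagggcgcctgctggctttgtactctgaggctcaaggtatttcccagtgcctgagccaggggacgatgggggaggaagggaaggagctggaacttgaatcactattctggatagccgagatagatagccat
Igfbp5: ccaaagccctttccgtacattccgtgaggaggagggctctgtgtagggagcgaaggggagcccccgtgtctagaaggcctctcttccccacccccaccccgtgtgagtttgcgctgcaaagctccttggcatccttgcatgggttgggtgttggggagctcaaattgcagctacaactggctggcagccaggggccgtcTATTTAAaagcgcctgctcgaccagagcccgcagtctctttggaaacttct

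The Igf1 sequence held 1 match, to CCAAT on the opposite strand, beginning 142 bases before the start site, and the Igfbp5 sequence held 1, to TATTTAA, beginning 51 bases before it. Of 32851 windows of the same length in the promoter table, 33.8% held CCAAT and 4.18% held TATTTAA. The GC box, found in 32.7% of windows, was absent from both, but stood before at least 1 start site of 5 of the 10 members, Igf2, Igf1r, Igf2r, Igfbp2 and Igfbp7. The motif TATAAA, in 12.4% of windows, was found before Igfbp4 and Igfbp6, and TGACNNNGC, which lies in 10.2% of windows, before 0 of the 10. The windows of Igfbp3 and Igfbp4, like that of Igf1, lie inside their genes. Motifs before the outermost starts of these genes were therefore not covered. These matches describe letters only, and no binding was measured.

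By their means, 7 of the 10 members were higher with NAC and 3 were lower. Their median log2 fold change was 0.09, against 49.8% of all genes higher and a median of -0.00029. Igf1, at 0.36, and Igfbp5, at 0.40, were highest in the list and Igfbp2, at -0.13, lowest. With limma, 0 of the 10 had an adjusted p under 0.05, as did 0 (0%) of the 18938 genes, and the smallest adjusted p of any member, 0.827, was also the smallest of any gene. At an unadjusted p under 0.05 there were 2 members higher with NAC, Igf1 and Igfbp5, against 1.89% of all genes, and 0 lower, against 2.53%. Without NAC replicate 3, 1 member, Igf1, was higher at an unadjusted p under 0.05, against 1.51% of all genes. In 1 member, Igf1, all NAC arrays lay above all vehicle arrays, as in 1.29% of all genes, and in 0 members below, as in 2.18%. The members were chosen by name, but with earlier results on Igf1 and Igf2 known, so these counts are a description.

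**Figure D1:**
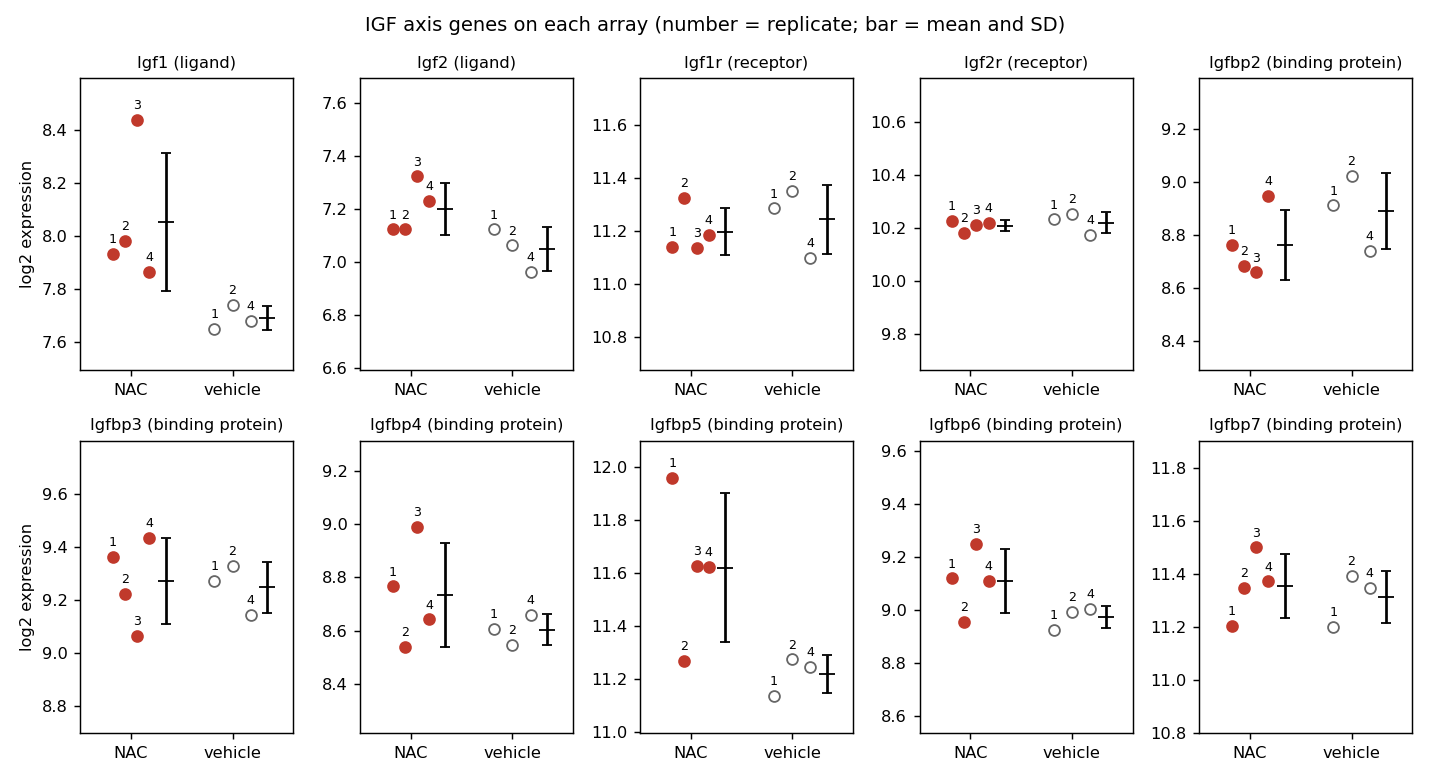
Log2 expression (y axis, with the same span of 1.1 log2 units in each panel) of the 10 IGF axis genes on NAC arrays (filled, red, n = 4) and vehicle arrays (open, grey, n = 3), with the replicate number above each point and bars for mean and SD. Igf1 has the 4 NAC arrays above the 3 vehicle arrays, Igfbp5 has 3 NAC arrays above them, and Igf2r hardly varies.

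Among the ligands, Igf1, the main mediator of growth hormone action, was at 7.93, 7.98, 8.44 and 7.86 on NAC replicates 1 to 4, against 7.65, 7.74 and 7.68 on vehicle replicates 1, 2 and 4. The lowest NAC array was above the highest vehicle array, and NAC replicate 3 stood above the other NAC arrays. The means were 8.05 ± 0.26 with NAC (SD, n = 4) and 7.69 ± 0.05 with vehicle (SD, n = 3), a log2 fold change of 0.36 (standard error 0.14, 95% interval 0.04 to 0.69), or 1.29-fold, which did not pass limma's test (adjusted p = 0.827). By the exact permutation test over the 35 splits of the arrays the two-sided p was 0.057, where 0.029 is the smallest it can give. Without NAC replicate 3, the NAC mean was 7.93 ± 0.06 (SD, n = 3) and the log2 fold change 0.24 (standard error 0.04, 95% interval 0.13 to 0.35), with all NAC arrays still above all vehicle arrays, as in 2.17% of all genes, and a limma adjusted p of 0.854.

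Igf2, the fetal growth factor that is expressed from the paternal allele, was at 7.12, 7.12, 7.32 and 7.23 on NAC replicates 1 to 4, against 7.12, 7.06 and 6.96 on vehicle replicates 1, 2 and 4. It was highest on NAC replicate 3, and 3 arrays (NAC replicates 1 and 2 and vehicle replicate 1) held the same value, so the groups met at 7.12. The log2 fold change was 0.15 (standard error 0.06, 95% interval -0.0022 to 0.30; limma adjusted p = 0.827), and 0.11 without NAC replicate 3 (95% interval -0.03 to 0.25). The mean of both ligands' deviations from their 7-array means reached 0.36 on NAC replicate 3. It lay between 0.01 and 0.04 on NAC replicates 1, 2 and 4, and between -0.20 and -0.12 with vehicle.

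The receptors differed little. Igf1r, the signalling receptor for both ligands, was at 11.14, 11.33, 11.14 and 11.19 on NAC replicates 1 to 4, against 11.29, 11.35 and 11.10 on vehicle replicates 1, 2 and 4. The groups overlapped over almost their whole range, with both the highest and the lowest array in the vehicle group. The log2 fold change was -0.05 (95% interval -0.22 to 0.13), which leaves room for a difference of that size in either direction. It was -0.03 without NAC replicate 3 and 0.0047 without vehicle replicate 2. Igf2r, which clears Igf2, had the smallest spread of the members, 0.08 log2 units over the 7 arrays. It averaged 10.21 ± 0.02 with NAC (SD, n = 4) and 10.22 ± 0.04 with vehicle (SD, n = 3). Its log2 fold change of -0.01 had a 95% interval of -0.09 to 0.06. The log2 fold change was -0.01 without NAC replicate 3 and 0.0058 without vehicle replicate 2. Neither receptor passed limma's test, with an adjusted p of 0.894 for Igf1r and a higher one for Igf2r.

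Igfbp5, a binding protein that attaches to extracellular matrix and whose RNA rises in the rat ventral prostate after castration, had the largest range of the members, 0.82 log2 units. It was at 11.96, 11.27, 11.63 and 11.62 on NAC replicates 1 to 4, against 11.14, 11.27 and 11.25 on vehicle replicates 1, 2 and 4. NAC replicates 1, 3 and 4 were above every vehicle array, while NAC replicate 2 lay within the vehicle range. The means were 11.62 ± 0.28 with NAC (SD, n = 4) and 11.22 ± 0.07 with vehicle (SD, n = 3), a log2 fold change of 0.40 (standard error 0.15, 95% interval 0.05 to 0.75), or 1.32-fold, with a limma adjusted p of 0.827 and an exact permutation p of 0.086. Without NAC replicate 3 the log2 fold change was also 0.40 (95% interval -0.03 to 0.83), so the value did not rest on that array. Leaving out NAC replicate 1 instead gave 0.29, and leaving out NAC replicate 2 gave 0.52. Seminal vesicle genes varied between the same arrays: their mean deviation was -1.27 on NAC replicate 1, where Igfbp5 was highest, -0.02, -0.57 and 0.76 on NAC replicates 2, 3 and 4, and from 0.12 to 0.50 on the vehicle arrays. The mean on NAC replicate 4 came mainly from Svs2 (2.38) and Pate4 (2.84), with the others between -0.26 and 0.32. All 7 were lower with NAC by their means, against 49.8% of all genes higher. Without NAC replicate 3, 2 of the 7 were higher. Basal epithelium markers also varied, with mean deviations of 0.35, -0.28, 0.18 and -0.14 on NAC replicates 1 to 4. On the vehicle arrays they ranged from -0.26 to 0.12. The part of seminal vesicle genes or basal markers in the Igfbp5 values was not tested.

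Igfbp4, which binds IGFs until it is cut by the protease encoded by Pappa, and Igfbp6, which prefers Igf2, followed one another across the NAC arrays. Igfbp4 was at 8.77, 8.54, 8.99 and 8.64 on NAC replicates 1 to 4, against 8.60, 8.54 and 8.66 on vehicle replicates 1, 2 and 4. Igfbp6 was at 9.12, 8.96, 9.25 and 9.11 on NAC replicates 1 to 4, against 8.93, 8.99 and 9.01 on vehicle replicates 1, 2 and 4. Both were highest on NAC replicate 3, and in both NAC replicate 2 was the lowest NAC array and lay below at least 1 vehicle array. The log2 fold changes were 0.13 for Igfbp4 (95% interval -0.12 to 0.38) and 0.14 for Igfbp6 (95% interval -0.03 to 0.30), and without NAC replicate 3 they were 0.05 and 0.09. The mean deviation of the 8 fibroblast markers from their 7-array means was 0.02, -0.08, 0.21 and 0.01 on NAC replicates 1 to 4 and from -0.16 to 0.06 with vehicle, and their part in the values of Igfbp4 and Igfbp6 was not tested. In bulk tissue, more cells of a type and more RNA per cell cannot be told apart.

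Igfbp2, Igfbp3 and Igfbp7 showed no difference beyond the spread of the arrays. Igfbp2, an abundant binding protein of epithelia, was at 8.76, 8.68, 8.66 and 8.95 on NAC replicates 1 to 4, against 8.91, 9.02 and 8.74 on vehicle replicates 1, 2 and 4. It had the lowest log2 fold change of the members, -0.13 (95% interval -0.35 to 0.09), with the groups overlapping. The value was -0.09 without NAC replicate 3, where Igfbp2 was lowest, -0.06 without vehicle replicate 2 and -0.20 without vehicle replicate 4. Igfbp3, the main carrier of IGFs in blood, ranged from 9.06 to 9.43 with NAC and from 9.14 to 9.33 with vehicle, so that the NAC arrays enclosed the vehicle arrays. Its log2 fold change was 0.02 (95% interval -0.20 to 0.25), 0.09 without NAC replicate 3, where it was lowest, and -0.03 without NAC replicate 4, where it was highest. Igfbp7, a low-affinity relative that is found in blood vessel walls, ranged from 11.20 to 11.50 with NAC and from 11.20 to 11.39 with vehicle, and its log2 fold change was 0.04 (95% interval -0.14 to 0.23) with all arrays and -0.0055 without NAC replicate 3, the array on which it was highest.

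**Figure D2:**
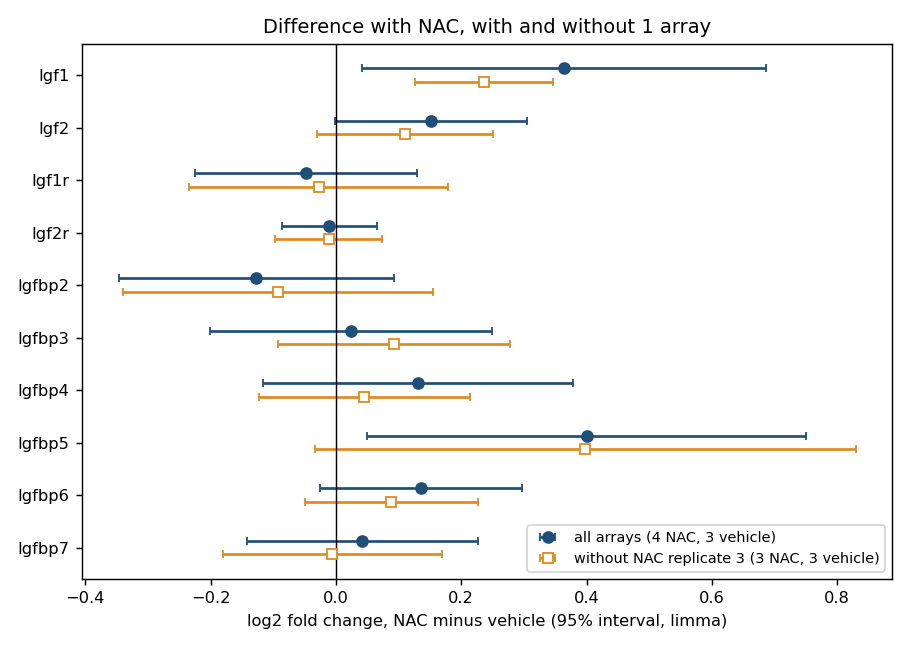
Log2 fold change of each member (x axis, NAC minus vehicle, with 95% intervals from limma) with all 7 arrays (filled circles) and without NAC replicate 3 (open squares). With all arrays the intervals of Igf1 (0.04 to 0.69) and Igfbp5 (0.05 to 0.75) lie above 0, and without NAC replicate 3 only that of Igf1 (0.13 to 0.35) does; these intervals are not adjusted for the number of genes.

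NAC replicate 3 was the highest array for 5 of the 10 members (Igf1, Igf2, Igfbp4, Igfbp6 and Igfbp7), against 14.8% of all genes, and the lowest for Igfbp2 and Igfbp3. The median log2 fold change of the 10 members was 0.09 with that array and 0.07 without it. On NAC replicate 3, the mean deviation of the markers was 0.97 for adipocytes, 0.21 for fibroblasts and 0.22 for endothelium, and 6 of 8 fibroblast and 5 of 6 endothelial markers were highest there. On the other arrays, adipocyte markers had mean deviations from -0.24 to -0.09, fibroblast markers from -0.16 to 0.06 and endothelial markers from -0.09 to -0.00050. Macrophage markers, all 7 of which were higher with NAC by their means, had mean deviations of 0.26, -0.01, 0.10 and -0.05 on NAC replicates 1 to 4 and from -0.17 to -0.03 with vehicle. Igf1 is made by fibroblasts, adipocytes and macrophages among other cells, and the part of these markers in its values was not tested.

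**Figure D3:**
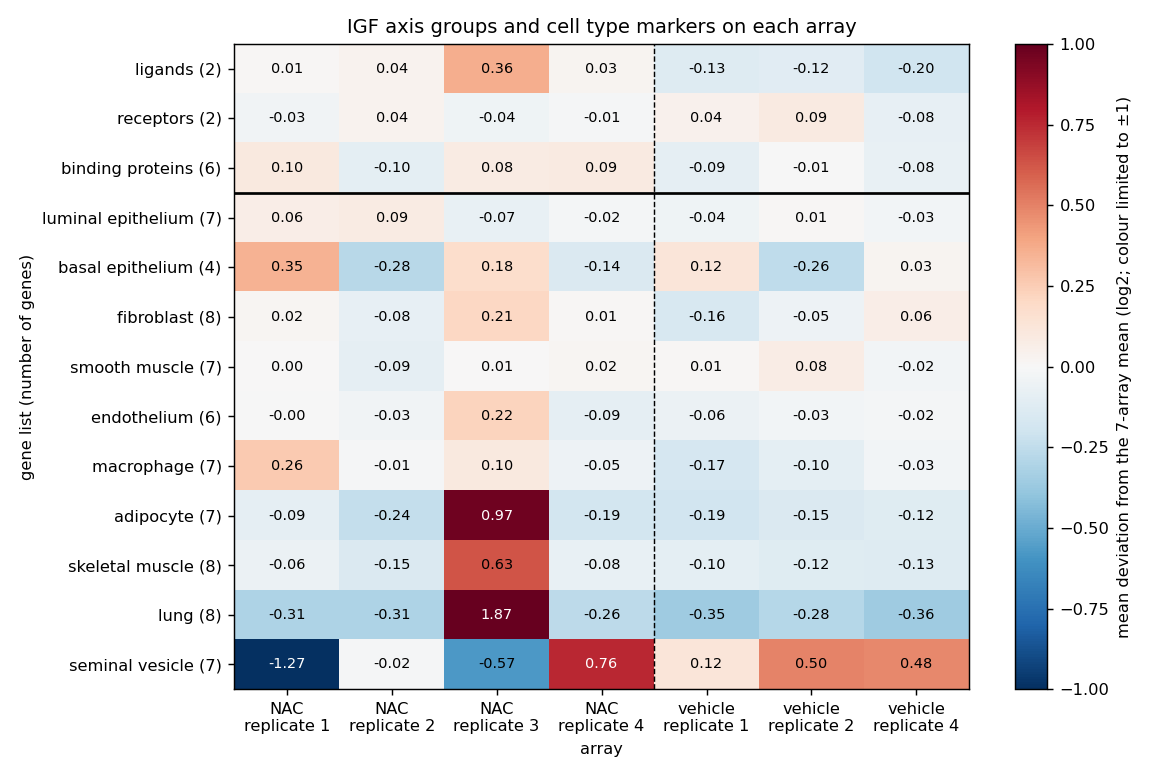
Mean deviation from the 7-array mean (log2; number and colour) of the ligands, receptors and binding proteins and of 10 cell type marker lists (rows, with the number of genes) on the NAC arrays (left of the dashed line) and vehicle arrays (right of it). The ligands stand at 0.36 on NAC replicate 3, where adipocyte markers are at 0.97 and lung markers at 1.87, and seminal vesicle genes range from -1.27 to 0.76 among the NAC arrays.

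Genes were ranked by the root mean square difference of their deviations over the 7 arrays from those of Igf1. Of the 18938 genes, predicted genes, Riken clones, and receptor and immunoglobulin families were passed over. As the nearest were picked by this pattern from so many genes, their likeness is a description. Most like Igf1 were Myoz1, a Z-disc protein of skeletal muscle, with 0.06 log2 units, the cell surface proteoglycan Gpc3 with 0.07 and Pck1, an enzyme of gluconeogenesis and of glycerol synthesis in fat, with 0.09. Each was highest on NAC replicate 3, with 6.07 for Myoz1, 7.57 for Gpc3 and 6.94 for Pck1. Their log2 fold changes were 0.34, 0.27 and 0.38, and none of the 3 passed limma's test (adjusted p = 0.827 for each). Most like Igf2 were Arhgef15, a gene of endothelium, with 0.02 log2 units, and Vwa3b and Tigd5 with 0.03 each. Of these 6 genes, Myoz1, Pck1, Arhgef15 and Vwa3b had means below the 40th percentile of gene means, 6.59, under which levels are dim.

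Other genes of the pathway were examined in 3 lists written from textbook knowledge. Of 9 extracellular regulators of IGFs, all measured, 3 were higher with NAC and 6 were lower. The median of their log2 fold changes was -0.0035, and 0 passed limma's test. Igfals, the acid-labile subunit that stabilizes IGF complexes in blood, was at 5.58, 5.59, 5.64 and 5.81 on NAC replicates 1 to 4, against 5.42, 5.38 and 5.54 with vehicle. All its NAC arrays were above the vehicle arrays, but its log2 fold change of 0.21 (standard error 0.07; limma adjusted p = 0.827) did not pass, and its mean was below the same 40th percentile. The serine protease Htra1 had 0.08 (standard error 0.04), and Stc1, a stanniocalcin, had -0.16 (standard error 0.20), a value that depended on single arrays: with 1 array left out it ranged from -0.28, without vehicle replicate 2, to -0.0066, without vehicle replicate 1, and it was -0.27, -0.04 and -0.10 without NAC replicates 1, 2 and 4.

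Of 22 genes of insulin and IGF receptor signalling, 19 were measured, among which 8 had higher and 11 lower means with NAC. Their median log2 fold change was -0.01, and 0 passed. Pik3r1, the regulatory subunit of PI3 kinase, averaged 10.69 ± 0.10 with NAC (SD, n = 4) and 10.81 ± 0.03 with vehicle (SD, n = 3), with all NAC arrays below all vehicle arrays, as in 2.18% of genes, and a log2 fold change of -0.12 (standard error 0.06; limma adjusted p = 0.827). The receptor substrates Irs2 and Irs4 had 0.12 (standard error 0.08) and 0.06 (standard error 0.04). Irs2 was at 0.05 without vehicle replicate 4 and Irs4 at 0.01 without vehicle replicate 1.

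Of 11 genes listed for the control of Igf1 and Igf2, 8 were measured, among them the growth hormone receptor and RNA-binding proteins. H19, the imprinted neighbour of Igf2, was not measured, nor were Igf2bp2 and Hmga2. Of the 8, 4 were higher, 4 lower and 0 passed, with a median of -0.0031. Plagl1, an imprinted zinc finger protein, had 0.17 (standard error 0.07), or 0.09 without vehicle replicate 1. Stat5b, which carries growth hormone signals to the Igf1 gene in liver, had -0.08 (standard error 0.05), or -0.04 without vehicle replicate 1 and -0.14 without vehicle replicate 2. Igf2bp1, which binds Igf2 RNA, had 0.12 (standard error 0.10), or 0.05 without NAC replicate 3 and likewise 0.05 without vehicle replicate 2. The means of Plagl1 and Igf2bp1 were also below the 40th percentile. With all arrays and an unadjusted p under 0.05, 2 of all 36 related genes were higher with NAC, against 1.89% of all genes. They were Igfals and Plagl1, and 0 were lower. Without NAC replicate 3 there were also 2 of 36, in either direction, against 637 of 18938 genes. Igfals was higher and Pik3r1 lower, at a log2 fold change of -0.15 without that array.

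**Figure D4:**
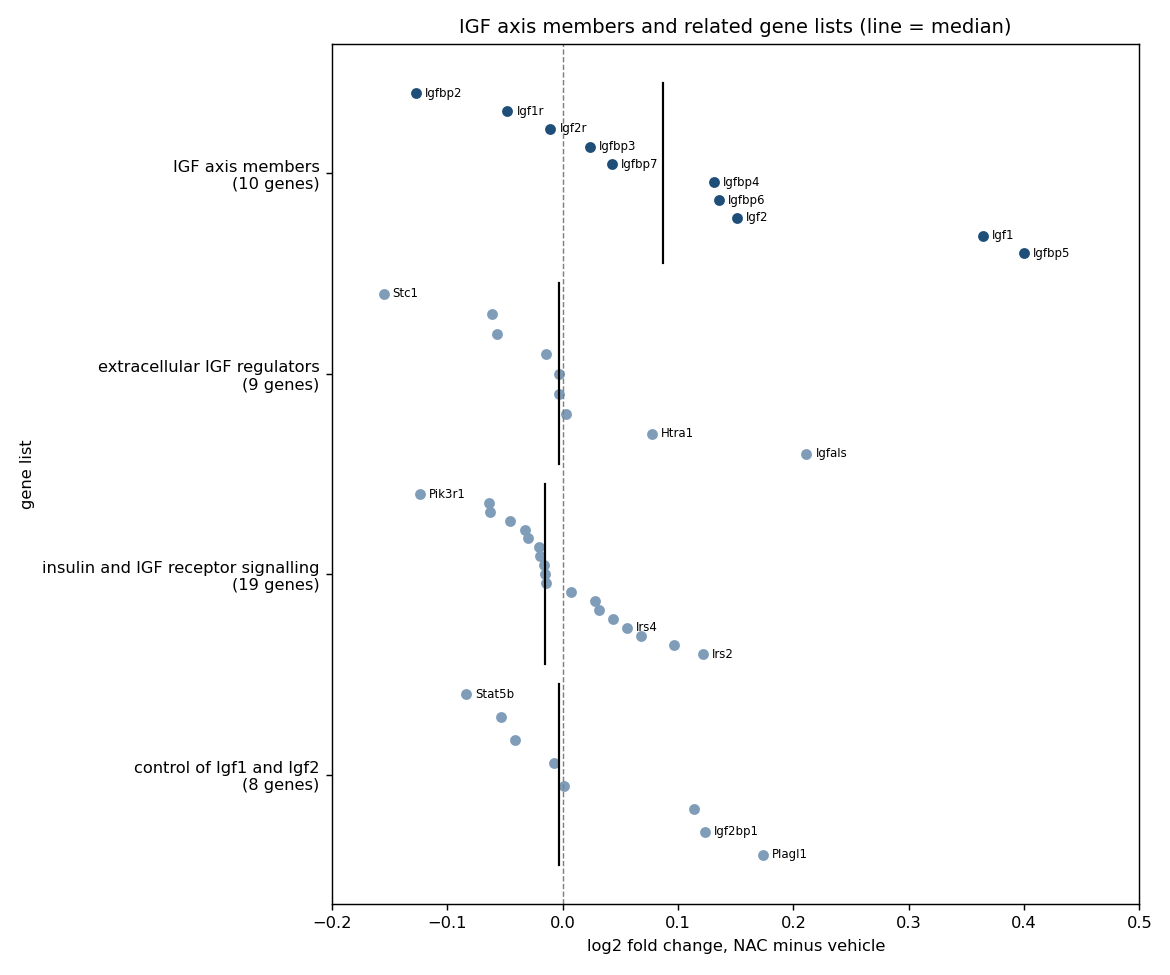
Log2 fold change (x axis, NAC minus vehicle) of the 10 IGF axis members and of the genes of 3 related lists (y axis, with the number of genes), each point 1 gene and each line the median of its list. Igf1 and Igfbp5 lie at 0.36 and 0.40, while the medians of the related lists lie between -0.01 and -0.0031.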

How the data were processed

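Expression was measured in 7 Nkx3.1-/- prostates, 4 from NAC-treated and 3 from vehicle-treated mice, and arrays were assigned by their titles. The deposited values are log2 probe set summaries, which the authors obtained in R (Affy package) by quantile normalization of the probes, RMA background correction and a median polish over perfect-match probes. Of tools, affy, RMA and limma are named in the submitters' processing notes. Quantile normalization makes the arrays alike in distribution, so shifts shared by most genes cannot be seen, and median polish gives many small differences as ties: 40.0% of genes hold 1 value on at least 3 arrays. Arrays have no read depth, and precision is limited by their number.

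Of 20696 probe sets, 18950 name 1 gene in the platform annotation, 678 several and 1068 none. Symbols were updated through Entrez identifiers (18910 in the GRCm38.p6 gene table), and the probe set of highest mean was kept for each gene. Columns that belong to no sample numbered 0. The linear model and moderated statistics were those of limma 3.58.1 under R 4.3.3, two-sided and without covariates, with Benjamini-Hochberg adjustment over all genes and a threshold of 0.05. On simulated data with 200 of 18938 genes changed, 76.3% of those with a log2 change of 0.5 were recovered over 10 runs, with 8.1 false calls per run. The simulated noise was normal and independent between genes, with no effect shared by an array, and the share is an average over genes. Igf1 and Igfbp5 had smaller differences, 0.36 and 0.40, and within-group SDs of 0.20 and 0.22. The simulation therefore does not tell how often differences like theirs would be called.

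Members and lists were chosen with earlier results of these data known. Named are all members, up to 3 genes of smallest unadjusted p in each related list, the 3 genes most like Igf1 and Igf2 (predicted genes, Riken clones, receptor and immunoglobulin families passed over) and markers that bear on a member. Alternatives left out each array or the genes under the 40th percentile, subtracted array medians, repeated the quantile normalization, weighted the arrays, used a robust fit with a variance trend, took the median of a gene's probe sets, or blocked on the replicate number. Promoters of all 10 members are from RefSeq. The targeted gene is not analysed here.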

Additional observations from a re-analysis of the deposited data

Results flagged for a closer look

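In 32 sets of 4 NAC values (members, named related genes, and means of member groups and marker lists), 8 had 1 array separated from the others beyond Dixon's limit. That limit is passed by about 1 in 20 sets of independent normal values. These sets share arrays, some hold tied values, and the lists were chosen with earlier results known. The 8 of 32 therefore cannot be compared with that rate. NAC replicate 3 was the separate array in 5 of the 8 sets: the mean deviation of the ligands was 0.36, of adipocyte markers 0.97, of skeletal muscle markers 0.63 and of lung markers 1.87, and Igf2bp1 was at 6.13. NAC replicate 2 was the separate array in the mean of the binding proteins, at -0.10, and of smooth muscle markers, at -0.087. Stat5b was lowest on NAC replicate 4, at 9.14.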

How the results depend on the processing

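Under the 14 alternative fits, 0 of the 10 members and 0 of the 36 related genes had an adjusted p under 0.05. Over all genes the number called was 0, except without NAC replicate 4, where it was 1, so it ranged from 0 to 1 with 1 array left out. Igf1, Igf2, Igfbp4, Igfbp5 and Igfbp6 were higher with NAC in each of the 14, with log2 fold changes from 0.24 to 0.43 for Igf1, from 0.11 to 0.19 for Igf2, from 0.05 to 0.20 for Igfbp4, from 0.29 to 0.52 for Igfbp5 and from 0.09 to 0.19 for Igfbp6, and Igfbp2 was lower in each, from -0.20 to -0.06. The 14 fits are not independent. Each member has 1 probe set, so the median of a gene's probe sets could not change its value. The robust fit with a variance trend and leaving out dim genes also keep the members' log2 fold changes. The replicate block gives the same log2 fold changes as leaving out NAC replicate 3. The other members changed sign at values near 0. With 1 array left out, Igf1r ranged from -0.12 to 0.0047, Igf2r from -0.033 to 0.0058, Igfbp3 from -0.030 to 0.093 and Igfbp7 from -0.013 to 0.093. Igf2r was at 0.016 after quantile normalization again. The cause was not tested. Replicate numbers are shared by the titles only, and deviations of same-numbered arrays correlated across genes with 0.21, 0.29 and -0.07. With the replicate block, which gives NAC replicate 3 no weight, Igfbp7 was at -0.0055, Igf1 at 0.24 and Igfbp5 at 0.40, and 0 genes passed. The signal over background of dim genes cannot be seen in summarized values; all 10 members were above the 40th percentile of genes.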
